A study of Mus musculus with 24 samples.

Results

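DUXBL-KO embryonic stem cells were compared with their WT counterparts before the DUX transgene was switched on. The comparison rests on 4 of the 24 libraries of the series, 2 labelled WT and 2 labelled DUXBL_KO, whose titles name neither DOX nor pLV2. All groups were made in KH2 cells, a mouse embryonic stem cell line, and share a TRE-driven DUX transgene that responds to doxycycline. The inducer doxycycline (DOX) was absent in the 4 libraries compared and was given for 16 h in the 4 matching induced libraries of the same genotypes, which are used below as a second set. The series as a whole also holds TRIM24-KO, TRIM33-KO and 2 sets of WT libraries labelled pLV2, and its title places DUXBL in the exit from the 2-cell state. Cells were kept in serum with LIF on gelatin or on arrested fibroblast feeders, and the labels do not say which library had feeders. The number after the genotype in the titles, 1 in both groups compared, is read here as a line number, as are the numbers 1 and 2 of the WT pLV2 libraries, but the labels do not say so. Nothing in the labels says that replicates came from separate cultures, so the p-values measure the spread between these libraries, which may be technical.

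DUX is a homeobox transcription factor that, in mouse embryos and embryonic stem cells, switches on genes and retroviral elements of the 2-cell stage, among them the Zscan4 cluster and MERVL. Duxbl is a related homeobox gene on chromosome 14 that is itself a target of DUX. In embryonic stem cells grown without inducer the 2-cell programme is nearly silent and appears only in rare cells. In bulk RNA, fewer cells of a type and less RNA per cell cannot be told apart.

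Gene counts were 12788738 and 15359989 in the WT libraries and 18507654 and 18433919 in the libraries labelled DUXBL-KO, and repeats took 9.90% to 11.8% of all counts. The pluripotency gene Pou5f1 had 8975 and 11495 counts in WT against 14836 and 15594 in DUXBL-KO. Of 21 fibroblast genes, Col3a1, Lum, Dcn, Postn, Fap and Twist2 had 0 counts in all 4 libraries, which allows up to 3 counts in each. The summed counts of the fibroblast list were 673 and 935 in WT against 896 and 1097 in DUXBL-KO, and 0 of its 11 tested members passed the test in edgeR. The coefficient of variation between replicates was 17.6% in the 8 libraries fitted together, against 8.73% in the pLV2 libraries. WT replicate 1 and DUXBL-KO replicate 2 each stood apart over single chromosome segments, as given below.

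The targeted gene gave little to check the labels with. Duxbl1 (ENSMUSG00000048502.14, GRCm38 chromosome 14, 25978577 to 25990088) had 24 and 6 counts in WT against 16 and 6 in the libraries labelled DUXBL-KO. The groups overlapped, and the log2 fold change of -0.84 ± 0.97 (SE) had an adjusted p of 0.841 in edgeR's quasi-likelihood test; it became 0.70 without WT replicate 1. With DOX its counts were 139 and 59 in WT against 169 and 91 in the libraries labelled DUXBL-KO, a log2 fold change of 0.47 ± 0.69 with an adjusted p of 0.852 in edgeR, and the groups overlapped again. The near-identical copies Duxbl2 and Duxbl3 had 4 and 0 against 0 and 0 counts, and 4 and 8 against 6 and 0 counts. Reads could be split among the 3 copies, so these values are uncertain. The transcript level does not separate the groups, and gene counts check nothing where reads lie outside the deleted part, whose place is not given in the sources used here. Each direction below rests on the label DUXBL-KO. Dux itself (Duxf3), the gene of the transgene had 0 counts in all 4 libraries.

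In these uninduced cells 7 of 18060 genes passed the threshold of 0.05 on the adjusted p, 0.0388% of those tested, and all 7 were lower in DUXBL-KO. They were Nod1, Snx10, Avl9, Plekha8 and Tax1bp1 on chromosome 6, Sfi1 on chromosome 11 and Eif2s3y on the Y chromosome. At an unadjusted p under 0.05 there were 1610 genes (8.91%), 1047 lower and 563 higher. DESeq2 called 171 genes (0.947%), 49 higher (0.271%) and 122 lower (0.676%), and its calls held all 7. Leaving out any 1 of the 4 libraries, or fitting these 4 alone, left 0 genes past the threshold in edgeR, with 1032 to 1874 at an unadjusted p under 0.05.

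The 250 bases before the annotated start are given for 3 of the 7 genes, to show the promoters of a chromosome 6 gene left at 38.8% of WT, of the chromosome 6 gene lowered most and of the Y-linked gene. They are from RefSeq (GRCm38.p6), written 5′ to 3′ on the gene's strand, with CG dinucleotides, the sites of DNA methylation, in capitals.
Avl9, chr6:56714655-56714904, plus strand: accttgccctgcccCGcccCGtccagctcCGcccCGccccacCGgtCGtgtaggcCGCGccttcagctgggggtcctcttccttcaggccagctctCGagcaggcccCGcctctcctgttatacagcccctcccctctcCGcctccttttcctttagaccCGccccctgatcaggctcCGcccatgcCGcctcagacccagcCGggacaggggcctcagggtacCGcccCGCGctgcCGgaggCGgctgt
Nod1, chr6:54972613-54972862, minus strand: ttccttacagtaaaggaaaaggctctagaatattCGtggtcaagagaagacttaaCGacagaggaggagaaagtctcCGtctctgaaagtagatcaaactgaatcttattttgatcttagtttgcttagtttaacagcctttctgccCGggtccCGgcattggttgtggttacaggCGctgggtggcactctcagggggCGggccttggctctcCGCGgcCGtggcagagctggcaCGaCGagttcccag
Eif2s3y, chrY:1010345-1010594, plus strand: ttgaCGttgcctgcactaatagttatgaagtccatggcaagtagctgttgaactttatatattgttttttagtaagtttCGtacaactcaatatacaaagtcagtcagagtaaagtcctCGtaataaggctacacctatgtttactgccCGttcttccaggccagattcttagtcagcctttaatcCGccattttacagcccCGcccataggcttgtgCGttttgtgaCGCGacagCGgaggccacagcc
The 3 windows hold 20, 12 and 10 CG dinucleotides, against a median of 6 over 32851 promoters of the same length. As many or fewer were held by 83.65%, 68.46% and 64.43% of promoters. Promoters were listed for 6 of the 7 genes, all but Sfi1. The 11 promoters of those 6 genes held 1 to 35 CG dinucleotides.

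Nod1 encodes an intracellular sensor of bacterial peptidoglycan. It had 552 and 398 counts in WT against 11 and 23 in DUXBL-KO (ENSMUSG00000038058.14, chromosome 6, 54923949 to 54972612). In CPM, counts scaled to a common library size, that was 33.5 ± 13.2 against 0.911 ± 0.450 (SD, n = 2), or 2.72% of WT. Its log2 fold change was -5.19 ± 0.51, with an adjusted p of 0.0395 in edgeR, the value shared by all 7 genes.

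Snx10, a sorting nexin of endosomes, had 635 and 859 counts in WT against 302 and 364 in DUXBL-KO, a log2 fold change of -1.51 ± 0.14. Avl9, whose yeast relative acts late in the secretory pathway, had 533 and 645 against 301 and 282 counts, a log2 fold change of -1.36 ± 0.11. Plekha8, a carrier of glycosphingolipids in the Golgi, had 714 and 944 against 474 and 514, a log2 fold change of -1.09 ± 0.10. These genes showed little spread within a group once scaled. Avl9 stood at 41.4 and 39.2 CPM in WT against 16.2 and 15.1 in DUXBL-KO. Tax1bp1, an adaptor of selective autophagy and of ubiquitin signalling, fell least, from 182 and 174 CPM to 98.9 and 97.7, a log2 fold change of -0.85 ± 0.08.

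Sfi1, which encodes a centrin-binding protein of the centrosome, had 233 and 329 counts in WT against 95 and 109 in DUXBL-KO (chromosome 11, 3131850 to 3193463). Its log2 fold change was -1.80 ± 0.16. Sfi1 overlaps Drg1 and a processed pseudogene, Gm11400, on its own strand, so its counts can depend on how shared reads were treated. Drg1 had 3470 counts summed over the WT libraries and 3973 over the DUXBL-KO libraries and did not pass the test.

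Eif2s3y, the Y-linked copy of a subunit of translation initiation factor eIF2, had 348 and 758 counts in WT against 53 and 36 in DUXBL-KO. That was 27.0 and 46.0 against 2.85 and 1.92 CPM, a log2 fold change of -3.93 ± 0.39 and 6.54% of WT. The WT libraries differed from each other, but both lay above both DUXBL-KO libraries, as they did for all 7 genes.

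**Figure D1:**
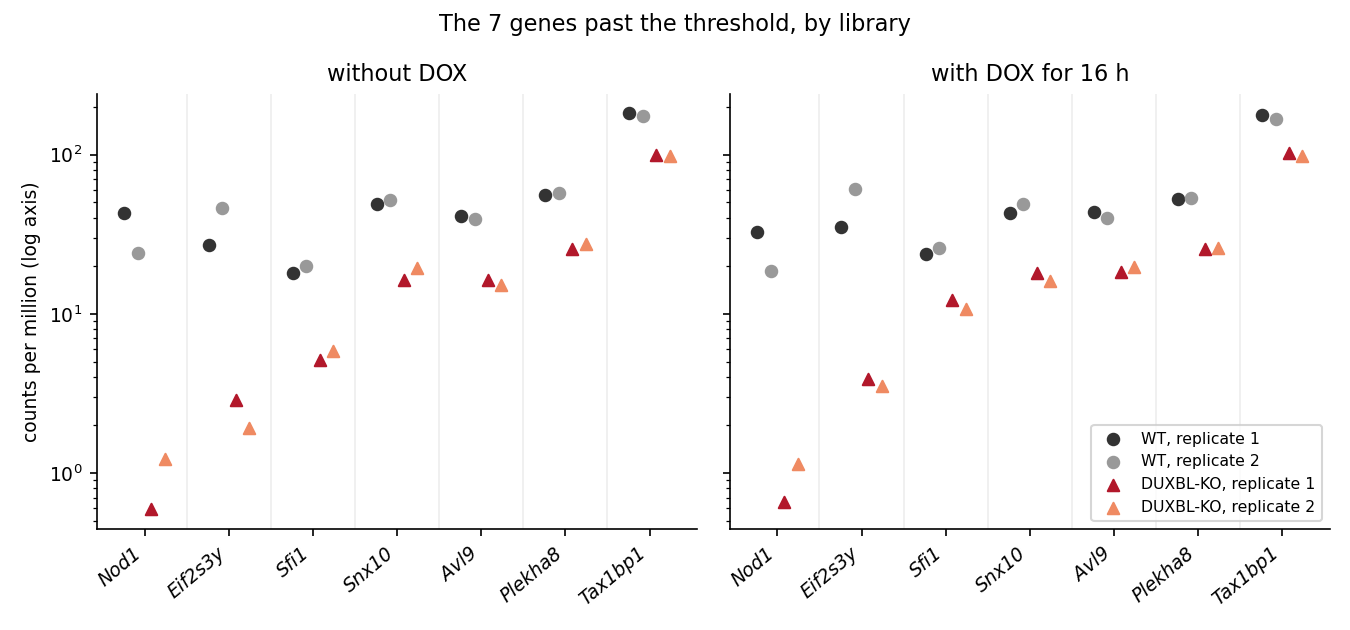
CPM (log axis) of the 7 genes past the threshold in each library, without DOX on the left and with DOX for 16 h on the right. Circles are WT and triangles DUXBL-KO libraries, 2 replicates each. In every gene both DUXBL-KO libraries lie below both WT libraries, in either condition.

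The same 7 genes were read in the 4 induced libraries, which entered the fit above through the spread, the scaling and the choice of genes tested. All 7 were lower there too, and 6 of the 7 passed the threshold among 13 genes called with DOX (0.072% of 18060), 10 lower (0.0554%) and 3 higher (0.0166%). The log2 fold changes with DOX were -4.78 for Nod1, -3.70 for Eif2s3y, -1.43 for Snx10, -1.14 for Avl9, -1.04 for Plekha8 and -0.78 for Tax1bp1, each with an adjusted p of 0.0356 in edgeR. Sfi1 had -1.12 with an adjusted p of 0.0707. Of the 13 genes called with DOX, 12 had the same direction and an unadjusted p under 0.05 without DOX. The difference between the effect with and without DOX was tested gene by gene as an interaction. In edgeR 0 of 18060 genes passed (0%), with 97 (0.537%) at an unadjusted p under 0.05, and DESeq2 called 1.

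Besides the 5 called genes, much of a stretch of chromosome 6 was low in DUXBL-KO. Between 40 and 60 Mb (segment A), 93 of 111 tested genes had a log2 fold change below 0, against 49.7% of all genes, and 65 were lower at an unadjusted p under 0.05, against 5.8%. The median log2 fold change there was -0.83, against 0.00 over all genes. Taken in steps of 5 Mb, a division chosen after the values were seen, the medians were -0.15 from 40 Mb, -0.80 from 45 Mb, -1.08 from 50 Mb and -1.21 from 55 Mb. From 55 to 60 Mb, 21 of 21 genes were lower. From 65 to 70 Mb the median was -0.14.

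A second stretch of the same chromosome, 100 to 120 Mb (segment B), had 88 of 110 genes lower, with a median of -0.50. In steps of 5 Mb the medians were -0.11 from 105 Mb, -0.58 from 110 Mb, -0.50 from 115 Mb, -0.49 from 120 Mb and -0.04 from 125 Mb. From 110 to 115 Mb, 39 of 40 genes were lower. None of them passed the threshold. Between the stretches, from 70 to 95 Mb, the medians of the 5 Mb steps lay between 0.01 and 0.12.

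**Figure D2:**
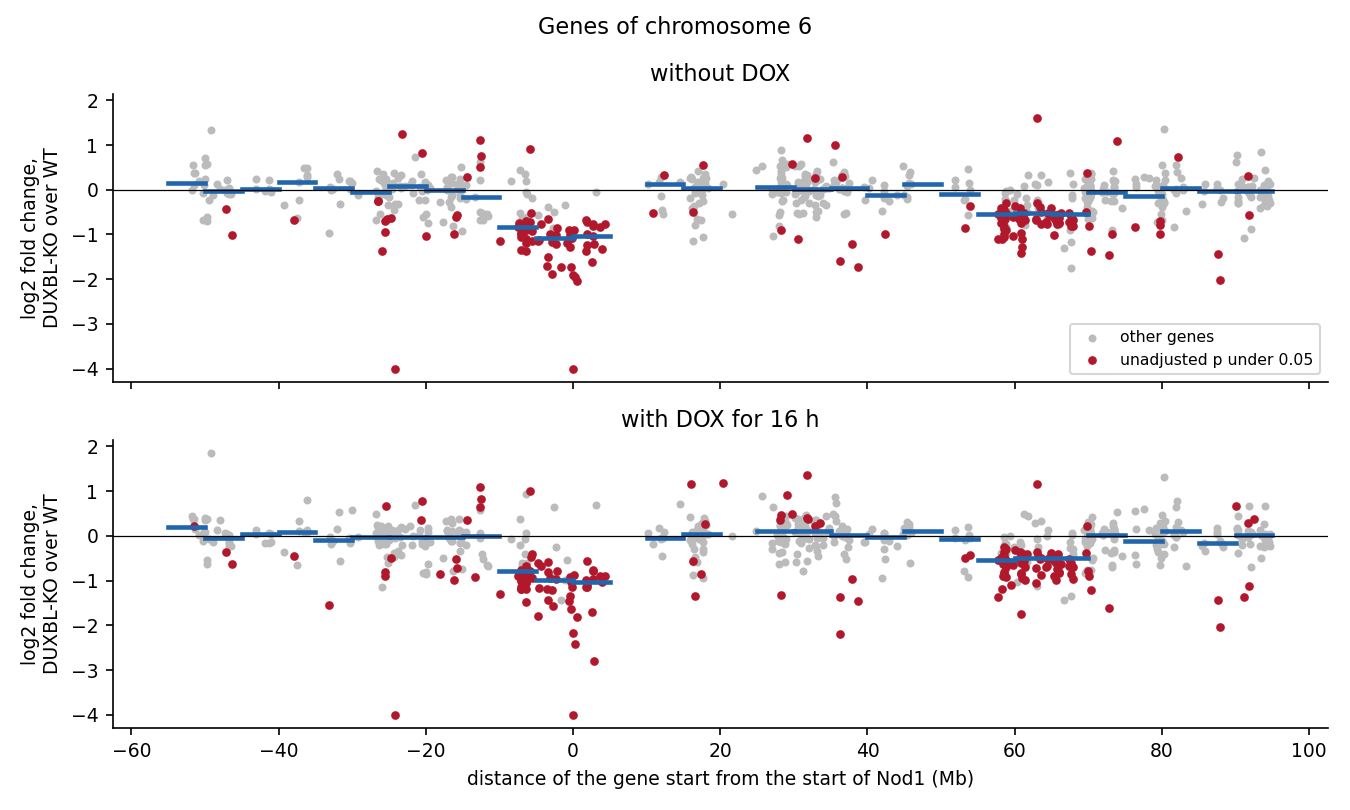
Log2 fold change of DUXBL-KO over WT for genes of chromosome 6 with a mean of at least 10 counts, by distance of the gene start from the start of Nod1 in Mb, without DOX (upper) and with DOX (lower). Red points have an unadjusted p under 0.05, blue bars are medians of 5 Mb steps, and values below -4 are drawn at -4. A low stretch around Nod1 and another about 60 Mb to its right appear in both panels.

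Segment A was read in each library as the median over its genes of log2(CPM + 1), less the mean of the 4 libraries. It stood at 0.31 and 0.30 in the WT libraries and at -0.30 and -0.30 in the DUXBL-KO libraries. Segment B stood at 0.22 and 0.19 in WT and at -0.17 and -0.20 in DUXBL-KO. With DOX the median log2 fold change was -0.89 in segment A, where 91 of 111 genes were lower, and -0.48 in segment B. Over both segments the groups did not overlap in either condition.

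Single neighbourhoods of segment A were low from end to end. From Wipf3 to Crhr2, a span around Plekha8 and Nod1, 11 of 11 tested genes were lower and 10 had an unadjusted p under 0.05. Ggct, the gene next to Nod1, which encodes an enzyme of glutathione breakdown, had 371 and 306 counts in WT against 109 and 124 in DUXBL-KO. Its log2 fold change was -1.92 ± 0.23 with an adjusted p of 0.0693. Gars, a glycyl-tRNA synthetase gene on the other side of Ggct, had 4425 and 7881 against 3858 and 4307 counts, with a log2 fold change of -0.91 ± 0.21 and an adjusted p of 0.25. Between Lsm5 and Nt5c3, around Avl9, 5 of 5 genes were lower. Kbtbd2, a substrate adaptor of a ubiquitin ligase, lies beside Avl9 and had 544 and 686 against 397 and 386 counts, with a log2 fold change of -0.997 ± 0.11 and an adjusted p of 0.0583.

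The span around Snx10 and Tax1bp1 was less uniform. There 12 of 13 tested genes were lower, and the exception was Evx1, a homeobox gene beside the Hoxa cluster, with 4 and 2 counts in WT against 11 and 21 in DUXBL-KO. Cbx3, which encodes the heterochromatin protein HP1 gamma, had 2050 and 2544 against 1801 and 1909 counts, or 159 and 155 against 97.0 and 102 CPM. Its log2 fold change was -0.66 ± 0.09 with an adjusted p of 0.0693 in edgeR. Hnrnpa2b1, next to Cbx3, overlapped between the groups with a log2 fold change of -0.38 ± 0.19.

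Gene by gene, chromosome 6 held 25.3% of its 811 tested genes at an unadjusted p under 0.05, 180 lower and 25 higher. Chromosome 11 held 11.2%, and the other autosomes and X lay between 4.33% on chromosome 8 and 9.95% on X. Of the 139 windows of 20 Mb with at least 20 genes, 9 had more than 75% of their genes lower. They were segments A and B and all 7 windows of chromosome 11.

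Chromosome 11 differed from segments A and B in how its libraries lay. Its 1379 genes had a median log2 fold change of -0.21, and 1128 were lower. Per library its median level was 0.22 and -0.02 in WT and 0.00 and -0.18 in DUXBL-KO. One WT library was high, one DUXBL-KO library was low, and the remaining 2 were close to each other. Without WT replicate 1 the median was -0.05, and without DUXBL-KO replicate 2 it was -0.08, while it was -0.31 without WT replicate 2 and -0.32 without DUXBL-KO replicate 1. Chromosome 8 was split by replicate number and not by genotype, at -0.16 and 0.10 in WT and -0.15 and 0.22 in DUXBL-KO, so its median of 0.08 went to -0.06 without WT replicate 1 and to -0.15 without DUXBL-KO replicate 2.

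The 2 windows with the lowest share of lower genes each held 1 library that stood apart. On chromosome 14 from 100 to 120 Mb (segment D), 31 of 34 genes were higher, with a median of 0.61. The level was 0.73 in DUXBL-KO replicate 2 alone, against -0.27, -0.13 and -0.24 in WT and DUXBL-KO replicate 1, and the median was -0.02 without that library. On chromosome 17 from 80 Mb (segment E), 55 of 65 genes were higher, with a median of 0.36. There WT replicate 1 was low at -0.53 against 0.16 to 0.21 in the other libraries, and the median was -0.01 without it. The same libraries stood apart after DOX, at 0.70 for DUXBL-KO replicate 2 in segment D and -0.54 for WT replicate 1 in segment E.

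**Figure D3:**
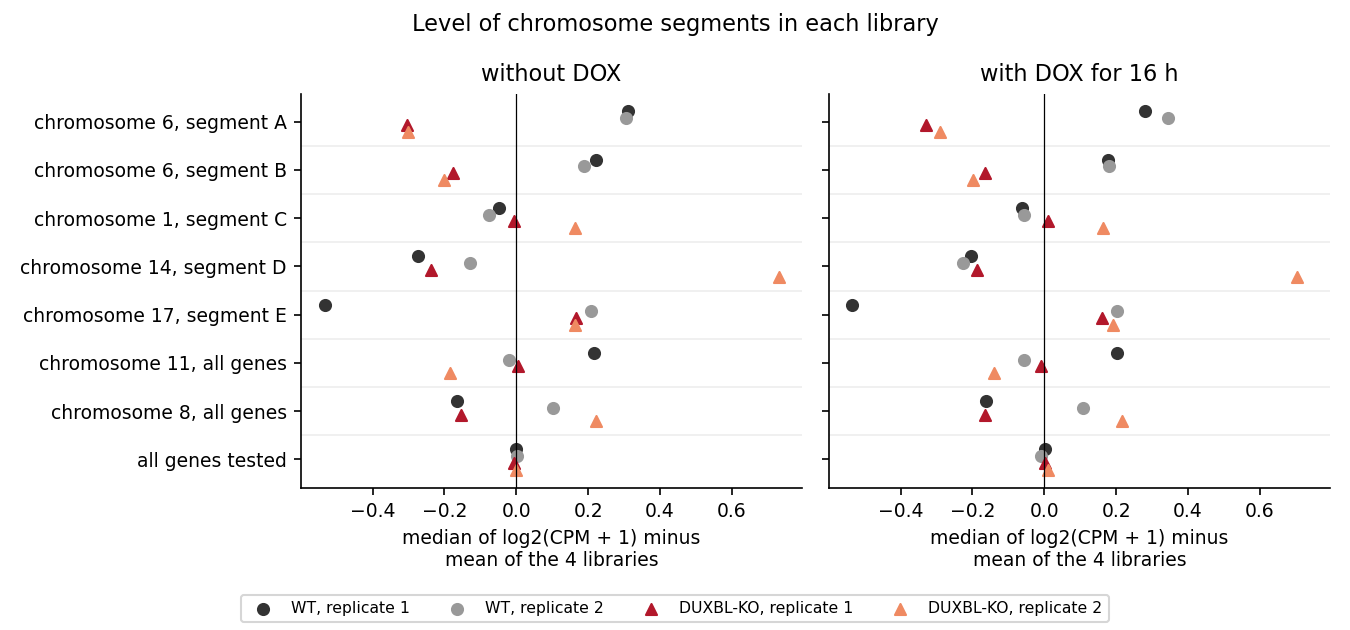
Level of 5 chromosome segments, 2 whole chromosomes and all genes in each library, as the median of log2(CPM + 1) minus the mean of the 4 libraries of the condition. Segments A and B are 40 to 60 and 100 to 120 Mb of chromosome 6, C is 100 to 120 Mb of chromosome 1, D is 100 to 120 Mb of chromosome 14 and E is 80 to 100 Mb of chromosome 17. Circles (WT) and triangles (DUXBL-KO) are apart by genotype in A and B, while in D, E and chromosome 8 single libraries or the replicate number set the order.

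No gene passed the threshold upward (0% of 18060) in the main edgeR fit, with 563 higher at an unadjusted p under 0.05 (3.12%). With no filter on low counts 212 genes passed upward, and DESeq2 called 49 higher. With the replicate number as a block in edgeR 117 passed upward, though whether the numbers pair libraries cannot be established. With median-of-ratios scaling 8 genes passed, and the added gene, Tsn, was higher. Tsn, which encodes the RNA- and DNA-binding protein translin, had 1476 and 1882 counts in WT against 3509 and 3708 in DUXBL-KO. In CPM that was 114 and 114 against 189 and 198, a log2 fold change of 0.76 ± 0.08 with an adjusted p of 0.0583.

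Tsn has neighbours that lay higher as well. Over the span from Tsn to Tfcp2l1 on chromosome 1 (118294778 to 118685168), 7 of 7 tested genes had a log2 fold change above 0, against 48.5% of all genes. Of these, 5 were higher at an unadjusted p under 0.05 in edgeR, against 3.12% of all genes. Gm23497, among those 5, lies within Tfcp2l1 on its strand. Gm22710 and 2900060B14Rik lie within Clasp1 on the other strand, so the 7 are not all separate places. Clasp1, which encodes a microtubule plus-end protein, had 1402 and 1534 against 3205 and 3078 counts, with a log2 fold change of 0.74 ± 0.11 and an adjusted p of 0.0971. Nifk, a nucleolar protein gene, had 0.87 ± 0.15 with an adjusted p of 0.145. Tfcp2l1, a transcription factor of naive pluripotency, stood at 826 and 883 CPM in WT against 1599 and 1292 in DUXBL-KO, a log2 fold change of 0.76 ± 0.13 with an adjusted p of 0.145. The whole of segment C, 100 to 120 Mb of this chromosome, had 23 of 32 genes higher and a median of 0.29, which was 0.175 without DUXBL-KO replicate 2 and 0.41 without DUXBL-KO replicate 1.

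Genes elsewhere that came near the threshold were scattered. Atp2a2, the calcium pump of the endoplasmic reticulum, had 3409 and 4238 counts in WT against 8374 and 7684 in DUXBL-KO, with a log2 fold change of 0.72 ± 0.09 and an adjusted p of 0.0693. It passed with DOX at 0.81 (adjusted p 0.0356 in edgeR). Rpl39l, a variant ribosomal protein gene, had 120 and 113 against 706 and 551 counts, a log2 fold change of 2.07 ± 0.27 with an adjusted p of 0.0693. A930004D18Rik had 15 and 11 against 94 and 100 counts, a log2 fold change of 2.52 ± 0.32 with an adjusted p of 0.0693. Cyp2s1, a cytochrome P450 gene, had 139 and 152 against 386 and 360 counts, at 1.00 ± 0.14. On the lower side, outside chromosome 6, were Prag1 with -1.02 ± 0.12 (adjusted p 0.0611), Cyfip2 with -0.87 ± 0.10 and Zbtb46 with -1.78 ± 0.23, the last 2 with an adjusted p of 0.0693. These genes were chosen among those whose groups did not overlap, so that trait is not a result about them. Over all genes, 17.2% were higher and 20% lower without overlap.

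Of 10 tested genes of the Y chromosome, 7 were lower and 2 higher in DUXBL-KO, with a median of -2.001. With DOX 6 were lower and 4 higher, with a median of -1.37. All 6 tested members of the list of 8 Y genes were lower without overlap, against 20% of all genes. Their median was -3.03, although only Eif2s3y passed the threshold in edgeR. DESeq2 called Ddx3y (adjusted p 0.00193) and Uty (adjusted p 0.0284) as well. Ddx3y, a Y-linked RNA helicase gene, had 585 and 1400 counts in WT against 179 and 69 in DUXBL-KO, with a log2 fold change of -3.29 ± 0.61 and an adjusted p of 0.163. Uty, a Y-linked relative of the histone demethylase UTX, had 262 and 871 against 53 and 15 counts, at -4.33 ± 0.91. Uba1y, a Y-linked ubiquitin-activating enzyme gene, differed less, with 65 and 74 against 36 and 39 counts, at -1.24 ± 0.24 (adjusted p 0.175). WT replicate 2 had more than WT replicate 1 in Ddx3y, Uty and Eif2s3y also after scaling, so the spread in WT is part of these errors. Xist, the RNA of X inactivation, had 12 and 13 counts in WT against 13 and 4 in DUXBL-KO, and X-linked genes had a median of -0.02.

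The 2-cell programme stayed close to the detection limit in all 4 libraries. Of 37 tested genes in the list of 38, 35 had 3 counts or fewer in each WT library and 21 were at that floor in both groups, so no fold is given for those 21. None passed the test in edgeR, and DESeq2 called 1, Zscan4e (adjusted p 0.0413). Zscan4e had 0 and 0 counts in WT against 10 and 13 in DUXBL-KO, which is at least 2.97-fold higher against 3 counts per WT library, with an adjusted p of 0.601 in edgeR. Zscan4d had 1 and 0 against 7 and 13 counts, at least 2.58-fold higher, and Gm5662 had 1 and 0 against 12 and 11, at least 2.97-fold higher, also without passing. Zscan4 and Usp17l genes are near-identical copies, and reads could be split among them.

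Summed over the list the 2-cell counts were 148 and 176 in WT against 271 and 324 in DUXBL-KO. Ddit4l, a stress-responsive inhibitor of mTOR signalling, supplied 127 and 157 of the WT counts and 173 and 206 of the DUXBL-KO counts. The other 36 genes summed to 21 and 19 counts in WT against 98 and 118 in DUXBL-KO, or 1.63 and 1.15 against 5.28 and 6.31 CPM. Both DUXBL-KO libraries were above both WT libraries. Zscan4e, at 10 and 13 counts in the DUXBL-KO libraries, had 25 and 19 counts in WT pLV2 line 1 and 11 and 6 in WT pLV2 line 2, also without DOX. The DUXBL-KO counts of this gene thus lay within the range of other uninduced WT libraries. For scale, the whole list reached 94238 and 41795 counts in WT after DOX. Zfp352 (0 and 1 against 0 and 1 counts) and Tcstv3 (0 and 1 against 1 and 2) were at the floor in both groups.

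No known regulator of the 2-cell state passed the test in edgeR without DOX, while DESeq2 called 2 repressors, Cbx3 lower (adjusted p 6.03e-05) and Ehmt2 higher (adjusted p 0.0414). Of 36 repressors tested, 23 had a log2 fold change above 0, with a median of 0.06, and 0 were called in edgeR. The median was 0.03 without DUXBL-KO replicate 1, 0.09 without DUXBL-KO replicate 2 and 0.10 without WT replicate 1. The repressor of smallest p was Cbx3, described above with segment A, at -0.66 ± 0.09 and an adjusted p of 0.0693, and it passed with DOX at -0.81 (adjusted p 0.0356 in edgeR). Ehmt2, which encodes the H3K9 methyltransferase G9a, had 155 and 177 CPM in WT against 223 and 235 in DUXBL-KO, a log2 fold change of 0.46 ± 0.10 (unadjusted p 0.00227, adjusted p 0.218 in edgeR). Trim28, the KAP1 corepressor of retroviral silencing, had 1490 and 1408 against 2105 and 1601 CPM, with 0.36 ± 0.16 and an adjusted p of 0.574. Trim24 and Trim33, targeted in other lines of the series, overlapped between the groups at 0.06 and -0.02. Of 7 activators tested, 4 were above 0 with a median of 0.05 that was -0.02 without WT replicate 2. Dppa2 and Dppa4, which activate Dux in embryonic stem cells, had 0.13 ± 0.15 and 0.05 ± 0.10, each with overlapping libraries.

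No gene of naive pluripotency passed the test in edgeR, and DESeq2 called 1, Tfcp2l1 (adjusted p 0.000569). Among 20 genes, 13 had a log2 fold change above 0, with a median of 0.06 that was 0.12 without DUXBL-KO replicate 2 and 0.11 without WT replicate 1, and 4 of them, Tfcp2l1, Nr5a2, Tbx3 and Pou5f1, were higher at an unadjusted p under 0.05, against 3.12% of all genes. Pou5f1 stood at 696 and 698 CPM in WT against 799 and 833 in DUXBL-KO, a log2 fold change of 0.23 ± 0.08 (adjusted p 0.469). Nr5a2, an orphan nuclear receptor that can activate Pou5f1, and Tbx3, a T-box factor, each had a log2 fold change of 0.40. Sox2 was at 353 and 318 against 353 and 312 CPM. Nanog had 502 and 434 against 505 and 352 CPM, and Zfp42, which encodes REX1, had 276 and 355 against 292 and 349. Both overlapped.

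No gene of the germ cell and lineage lists passed the test in edgeR, and DESeq2 called 1, Tuba3a (adjusted p 0.0282). In the germline list 11 of 13 tested genes were below 0, with a median of -0.44, and 9 were lower without overlap, against 20% of all genes. Tuba3a, an alpha-tubulin of testis that lies on chromosome 6 just beyond segment B, had 164 and 194 counts in WT against 92 and 83 in DUXBL-KO, with -1.38 ± 0.33 and an adjusted p of 0.262. Hormad1, a protein of meiotic chromosome axes, had 66 and 90 against 42 and 61 counts, with -0.94 ± 0.26. In the endoderm list 12 of 15 were below 0 (median -0.24), and in the mesoderm list 6 of 8 were above 0 (median 0.45). The neuroectoderm, trophoblast and primed pluripotency lists had medians of -0.13, -0.02 and -0.02. Without DUXBL-KO replicate 1 the germline median was -0.69, and without DUXBL-KO replicate 2 the mesoderm median was 0.30. With 1 library left out, the endoderm median reached 0.01 (without WT replicate 2), the neuroectoderm median 0.14 (without DUXBL-KO replicate 1), the primed median 0.27 (without DUXBL-KO replicate 2) and the trophoblast median 0.18 (without WT replicate 2).

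Retinoic acid and Hoxa genes had 6 of 8 tested members below 0, with a median of -0.59, and 0 called by edgeR or DESeq2. The median was -0.99 without DUXBL-KO replicate 1 and -0.33 in a fit of the 4 libraries alone. Crabp1 and Crabp2, which encode cellular retinoic acid binding proteins, had 188 and 228 against 167 and 128 counts and 40 and 42 against 29 and 20 counts, with log2 fold changes of -0.84 ± 0.20 and -1.10 ± 0.34. The interferon list had 7 of 8 below 0 with a median of -0.39. H2-K1, a class I histocompatibility gene, had 239 and 264 against 217 and 143 counts (-0.84 ± 0.26), and B2m, its light chain, had 65 and 77 against 62 and 66 (-0.50 ± 0.19). Neither passed, with adjusted p-values of 0.439 and 0.523 in edgeR.

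No imprinted gene passed the test in edgeR, while DESeq2 called Peg3 (adjusted p 0.00354) and Mest (adjusted p 0.0403) lower, with 15 of 29 above 0 and a median of 0.04, which was 0.01 without DUXBL-KO replicate 1 and 0.065 without WT replicate 1. Mest, a paternally expressed gene on chromosome 6 outside segments A and B, had 276 and 33 counts in WT against 7 and 2 in DUXBL-KO. The WT libraries differed more from each other than many genes did between groups, and the log2 fold change of -5.54 ± 1.73 had an adjusted p of 0.436. Peg3, a paternally expressed zinc finger gene, had 1615 and 988 against 619 and 472 counts, at -1.66 ± 0.44 (adjusted p 0.328). Igf2, a paternally expressed growth factor gene, had 20 and 21 against 50 and 45 counts, at 0.85 ± 0.36.

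All 13 protein genes of the mitochondrial genome had a log2 fold change above 0, with a median of 0.52, and none passed in edgeR, while DESeq2 called mt-Co3 (adjusted p 0.000817). mt-Co3, a subunit of cytochrome c oxidase, stood at 312 and 278 CPM in WT against 446 and 510 in DUXBL-KO, with 0.70 ± 0.12 and an adjusted p of 0.151. The share of gene counts from all genes of the mitochondrial genome, not only these 13, was 7.97% and 5.02% in WT against 7.32% and 7.08% in DUXBL-KO. WT replicate 2 was the low library by that share. The 13 protein genes alone summed to 14710 and 11320 CPM in WT against 17400 and 17310 in DUXBL-KO, so both WT libraries lay lower. The median was 0.25 without WT replicate 2 and 0.80 without WT replicate 1, and with DOX it was 0.10.

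Lists for other processes had 0 genes called by edgeR, and DESeq2 called 1, Slc2a3 (adjusted p 0.00465). Among 13 genes of glycolysis and hypoxia 10 were below 0, and Slc2a3, a glucose transporter beside Nanog on chromosome 6, had 11230 and 16666 counts against 11874 and 10317, with -0.66 ± 0.12 and an adjusted p of 0.163. In the cell cycle list 19 of 23 were above 0, with a median of 0.10. The signalling target, p53 target, stress response and DNA methylation lists had medians of 0.14, 0.05, -0.01 and 0.02. The signalling target median was -0.005 without WT replicate 2, and the p53 target median lay between 0.01 without DUXBL-KO replicate 2 and 0.18 without DUXBL-KO replicate 1. The stress response median lay between -0.22 without WT replicate 1 and 0.565 without WT replicate 2, and the DNA methylation median reached -0.05 without WT replicate 2. Dnmt3b, a de novo DNA methyltransferase, had 265 and 282 against 328 and 324 CPM, with 0.25 ± 0.09 (adjusted p 0.464).

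**Figure D4:**
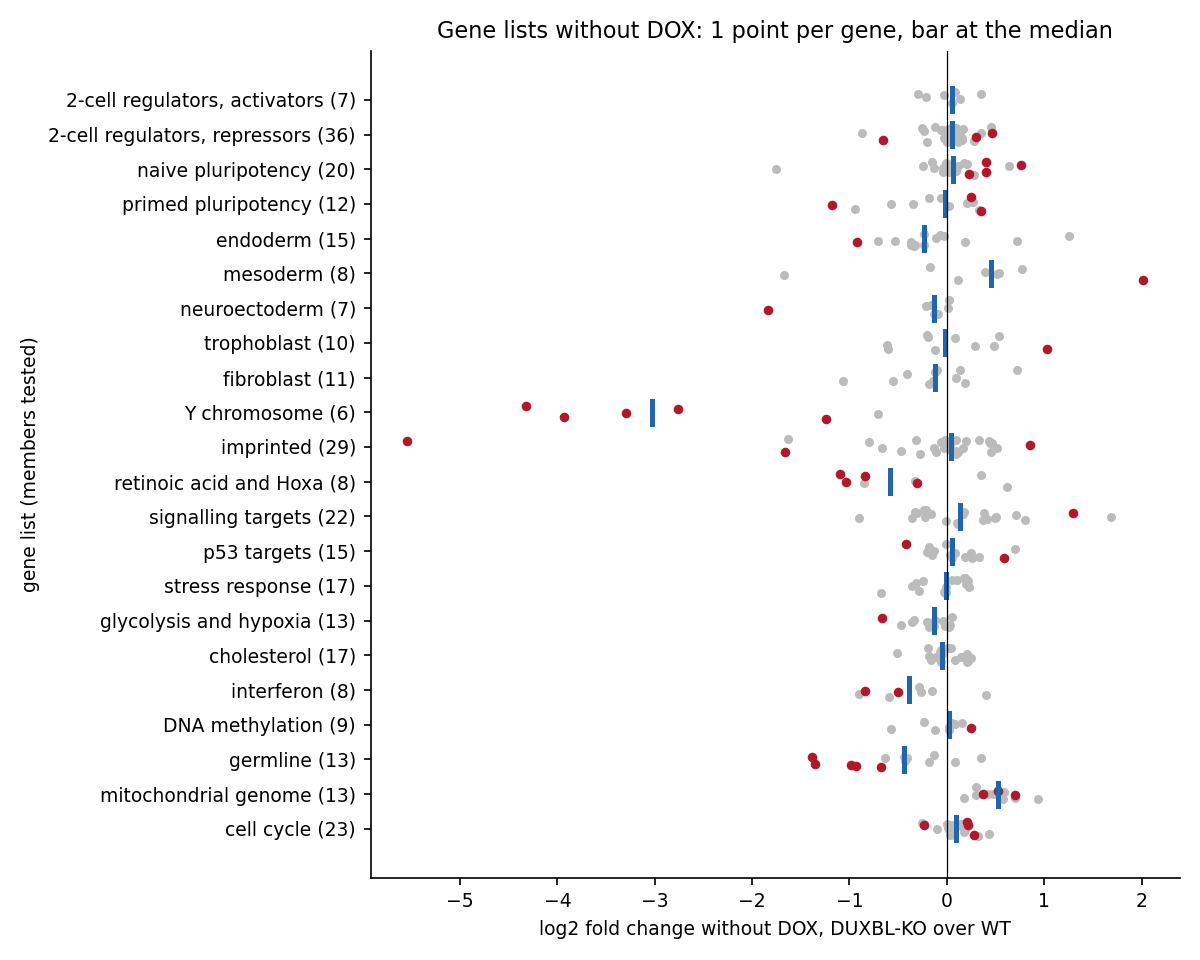
Log2 fold change of DUXBL-KO over WT without DOX for the tested members of 22 gene lists, 1 point per gene, red where the unadjusted p is under 0.05, with a blue bar at each list's median. The 2-cell list is not drawn because most of its genes are at the floor. The Y chromosome list lies at -3.03, the mitochondrial list at 0.52, and most of the other medians are near 0.

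Of 981 repeat subfamilies, 0 passed the threshold (0%) in edgeR and 0 in DESeq2, with 44 (4.49%) at an unadjusted p under 0.05 in edgeR, 43 of them higher (4.38%). In all, 736 subfamilies had a log2 fold change above 0, 75% of those tested, and the median was 0.12. That median went to -0.05 without DUXBL-KO replicate 2 and to 0.28 without DUXBL-KO replicate 1, so 1 library set its sign. Without overlap, 222 subfamilies were higher and 50 (5.1%) lower. Summed repeats stood at 112600 and 110400 CPM in WT against 109500 and 131400 in DUXBL-KO, with DUXBL-KO replicate 2 alone above the rest.

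L1Md_T, a young and mobile family of LINE-1 elements, had 2386 and 2533 CPM in WT against 3454 and 3606 in DUXBL-KO. Both DUXBL-KO libraries were above both WT libraries, as for 22.6% of all subfamilies, and the log2 fold change of 0.52 ± 0.13 had an adjusted p of 0.845. L1Md_Gf, another young LINE-1 subfamily, had 121 and 135 against 187 and 180 CPM, also at 0.52 ± 0.13. L1Md_A went by replicate number and not by genotype, at 994 and 1519 CPM in WT against 844 and 1436 in DUXBL-KO. Among the 6 L1Md subfamilies 5 were higher without overlap.

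MERVL-int, the coding part of the retrovirus that marks 2-cell-like cells, had 141 and 148 CPM in WT against 185 and 239 in DUXBL-KO, with 0.56 ± 0.34 and an adjusted p of 0.956. Its long terminal repeat MT2_Mm had 49.3 and 55.2 against 65.5 and 78.3 CPM, with 0.46 ± 0.35. Of the ERVK subfamilies, RLTR40 and RLTR30D2_MM are long terminal repeats with 0.60 ± 0.14 and 0.52 ± 0.12, and IAPEY4_I-int had 0.77 ± 0.20. ETnERV-int, an early transposon family, overlapped at 1325 and 1685 against 669 and 1464 CPM. GSAT_MM, the major satellite of pericentromeres, had 70.7 and 18.5 against 38.6 and 24.6 CPM, a spread within WT larger than the difference between groups.

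**Figure D5:**
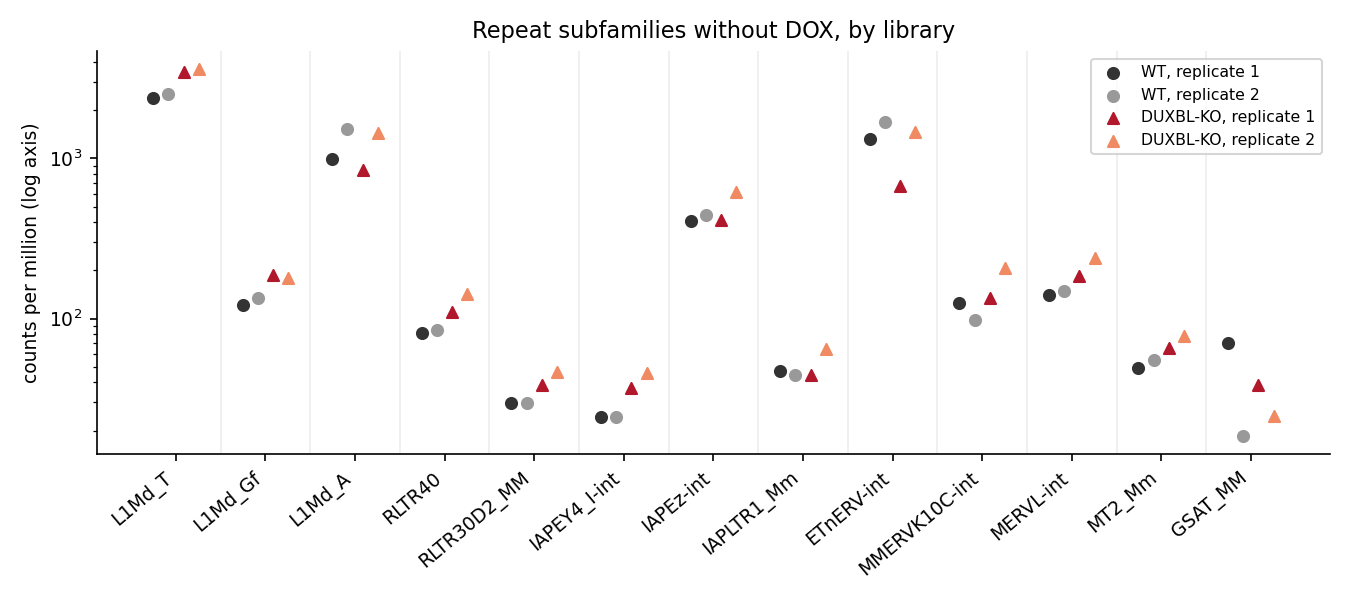
CPM (log axis) of 13 repeat subfamilies in each library without DOX; circles are WT and triangles DUXBL-KO. L1Md_T, L1Md_Gf, RLTR40, RLTR30D2_MM, IAPEY4_I-int, MMERVK10C-int, MERVL-int and MT2_Mm keep both DUXBL-KO libraries above both WT libraries, and the others overlap.

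The level of segment A was also set beside the other uninduced libraries, as the median of log2(CPM + 1) less the middle of the group means. WT stood at 0.56 and 0.60 and DUXBL-KO at -0.04 and -0.04. The TRIM24-KO libraries stood at 0.30 and 0.33, the TRIM33-KO libraries at -0.07 and -0.06, and the 4 WT pLV2 libraries between -0.19 and -0.09. DUXBL-KO thus lay within the range of the other lines, and both WT libraries lay above it. In segment B, where WT stood at 0.21 and 0.19, the other lines ran from -0.21 to 0.17, and DUXBL-KO stood at -0.12 and -0.17.

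The called genes were likewise set beside the 8 uninduced pLV2 libraries, scaled together with the 4 compared here. Snx10 was at 46.9 and 49.7 CPM in WT against 15.9 and 18.8 in DUXBL-KO, and the 8 pLV2 libraries lay between 19.6 and 25.8. Tax1bp1 was at 173 and 166 in WT against 96.8 and 94.2 in DUXBL-KO, against 71.4 to 144 in the pLV2 libraries. Plekha8 ran from 17.1 to 44.1 there, below both WT libraries at 52.7 and 54.6. For these 3 genes all 8 pLV2 libraries, which include 4 labelled WT, were below the WT libraries of the comparison, and for Avl9 and Sfi1 7 of 8 were. For Snx10 and Sfi1 all 8 were also above both DUXBL-KO libraries, for Avl9 7 were, for Plekha8 3 and for Tax1bp1 2. Sfi1 was at 17.2 and 19.02 CPM in WT and at 5.01 and 5.62 in DUXBL-KO, against 6.31 to 20.2 in the pLV2 libraries.

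Nod1 differed between the WT pLV2 lines. Nod1 was at 29.7 and 28.8 CPM in WT pLV2 line 1 and at 0.545 and 0.624 in WT pLV2 line 2, with 40.8 and 23.0 in the WT libraries compared here. Between those pLV2 lines the log2 fold change was -5.64, with an adjusted p of 3.76e-11 in edgeR. In that comparison of lines 6886 of 18079 genes passed (38.1%). It comes from a separate fit of the pLV2 libraries, whose coefficient of variation between replicates was 8.73%, against 17.6% in the fit of DUXBL-KO and WT. The numbers of genes called in these fits were thus reached at unlike power. Eif2s3y was at 22.6 to 55.7 CPM in the 4 WT pLV2 libraries and at 0.332 to 0.871 in the TRIM24-KO and TRIM33-KO libraries. Between the WT pLV2 lines its log2 fold change was 0.07 ± 0.35, with an adjusted p of 0.916 in edgeR. Tsn was at 78.7 and 75.3 CPM in WT pLV2 line 1 and at 225 and 183 in line 2, a range that holds both groups compared here.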

How the data were processed

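Per the labels, libraries were strand-specific, made from rRNA-depleted total RNA and read from both ends over 75 bases. The authors deposited raw counts per gene and per repeat subfamily for each library, per the file headers. The submitters' processing notes name bcl2fastq 2.20.0, cutadapt 1.18, STAR 2.7.6a and mm10. The counting tool, annotation, strand setting and treatment of multi-mapping reads are not given in the sources used here, so counts of near-identical copies, overlapping genes and repeats can depend on them. Of 55487 gene IDs, all but 260 were named from GENCODE M21 (GRCm38).

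Counts were fitted with edgeR 4.0.16 in R 4.3.3 (quasi-likelihood test) over the 8 plain libraries with 1 mean per group, TMM factors from genes and edgeR's filter on low counts. P-values were adjusted by Benjamini-Hochberg over 18060 genes and, separately, 981 repeat subfamilies, with a threshold of 0.05. Log2 fold changes are DUXBL-KO minus WT ± SE. The floor was 3 counts per library. The fit was tested on simulated data. DESeq2 1.42.0 was an alternative.

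Named genes were all past the threshold, a set of 2-cell, pluripotency and targeted genes, the 8 higher and 8 lower of smallest p outside these (mean of at least 50 counts, no overlap), up to 3 per list and 5 repeats of smallest p. Neighbours of these genes and genes at the edges of lists were added after their values were seen. The members and lists were chosen with earlier results of these data known.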

Additional observations from a re-analysis of the deposited data

How the results depend on the processing

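Without DOX the main fit called 7 genes. The count was 545 with no filter on low counts (212 higher, 333 lower), 171 with DESeq2, 402 with the replicate block (117 higher, 285 lower), 0 with only the compared groups and 0 to 0 with each library left out, which leaves 1 library in an arm, assumed to vary like the other groups. The causes were not tested. Only 2 replicate numbers exist, so whether they pair libraries cannot be established. Same-numbered libraries deviated together with correlations of 0.311 to 0.685 over 6 group pairs. The adjusted p of the 7 genes went up to 0.335 to 0.409 with 1 library left out. Repeats without DOX gave 22 with no filter. With DOX the counts of genes were 837 with no filter, 164 with DESeq2, 21 with scaling from genes outside chromosomes 6, 11 and Y (an alternative added after seeing the data), 459 with the replicate block, 1 with only the compared groups and 0 with each library left out. Repeats with DOX gave 126 with no filter, 35 with DESeq2 and 0 to 24 with 1 library left out, the highest without WT replicate 1. The interaction gave 11 genes with no filter and 1 with DESeq2. Between the WT pLV2 lines 1746 genes passed with an absolute log2 fold change of at least 1.

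The median of segment A was -0.811 with median-of-ratios scaling, -0.813 with no filter, -0.813 with DESeq2, -0.842 with only the compared groups and -0.851 to -0.795 with 1 library left out. Segment B ran from -0.536 to -0.449 and segment E from -0.009 to 0.922. Sox2 was at 0.003 with median-of-ratios scaling, with no filter and with DESeq2, and from -0.092 to 0.092 with 1 library left out. Other log2 fold changes that changed sign with 1 library left out were Bnip3 (-1.222 to 0.049), Dppa2 (-0.017 to 0.333), Dppa4 (-0.008 to 0.132), Duxbl1 (-1.693 to 0.696), GSAT_MM (-1.138 to 0.781), IAPEz-int (-0.016 to 0.547), IAPLTR1_Mm (-0.027 to 0.513), L1Md_A (-0.558 to 0.220), Nanog (-0.398 to 0.128), Sox11 (-0.656 to 0.144), Trim24 (-0.045 to 0.190), Trim33 (-0.021 to 0.010), Trp53 (-0.396 to 0.043), Tubb3 (-0.268 to 0.049) and Zfp42 (-0.139 to 0.238). Zfp352 is at the floor in both groups, so its fitted values of -2.467 to 2.217 are no measure of a fold. At this depth 21 of the 2-cell genes were at the floor in both groups, so differences there were not detectable.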

Other observations

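Segment D of chromosome 14 was also read in the other uninduced lines on the scale used for segment A. DUXBL-KO replicate 2 stood at 0.70 and the TRIM24-KO libraries at 1.28 and 1.05, while the other 9 libraries lay between -0.14 and -0.04. Cyp2s1 was at 10.3 and 8.79 CPM in WT and 20.4 and 18.6 in DUXBL-KO on the common scale, and at 24.9 to 59.2 in the 8 uninduced pLV2 libraries.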
